A study of Mus musculus with 5 samples.

Results

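Cytotoxic effector genes were read as 10 rows of the deposited count table, chosen by symbol with earlier results of these data known. They were Gzma, Gzmb, Gzmk, Prf1 and Nkg7 of the cytotoxic granule, the ligands Ifng and Fasl, the receptor gene Ncr1, and the transcription factor genes Tbx21 and Eomes. All 10 were present among the 54113 named entries of the table, and all 10 were among the 16133 genes that passed the filter on low counts. RNA was sequenced from MC38 tumours, a mouse colon carcinoma line named CRC in the labels, that had grown in C57BL/6 mice. Of the 5 tumours, 3 came from mice kept at 30 °C for 2 weeks (thermoneutral) and 2 from mice kept at 4 °C for 2 weeks (cold). The labels give these mice no genotype, drug, sex or age. The study's methods describe cold exposure in young C57BL/6 mice of both sexes that passed through a milder cold before 4 °C, with tumours implanted afterwards, without naming these 5. One cell line stands for the tumour type in both groups.

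Cytotoxic lymphocytes, mainly natural killer (NK) cells and CD8-positive T cells, kill target cells by releasing granules. Perforin opens the target membrane and granzymes, a family of serine proteases, enter and trigger death. Killing also runs through Fas ligand on the cell surface, and interferon-γ from the same cells acts on tumour and host cells. The T-box factors T-bet and Eomes drive this program.

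Values are CPM, meaning the reads of a gene scaled to 1000000 reads on named genes. Libraries held between 16191708 and 20320525 such reads. In 30 °C replicate 2, the 15 pancreatic acinar markers summed to 243800 CPM, against 20.3 to 2367 CPM in the other libraries, which lowers the CPM of every other gene in that library. For this reason fold changes were computed after TMM scaling. The label of tumour tissue was set against marker genes. The 8 epithelial markers summed to 21.3 to 125 CPM at 30 °C and to 19.4 and 92.0 CPM at 4 °C, with Krt19 at 0 counts in 30 °C replicate 3 and in 4 °C replicate 1. By comparison, 6 B cell markers summed to between 1147 and 3335 CPM, 7 erythroblast markers to between 15540 and 41970 CPM, and Tlx1, Nkx2-5 and Nkx2-3, genes of the splenic mesenchyme, together to between 23.9 and 66.1 CPM. These sums put the label in doubt: in all 5 libraries, genes of B cells and erythroblasts stood far above epithelial genes, and genes known from spleen were detected. Which tissue the RNA came from was not tested, and the libraries are called tumours below only because their labels do.

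Levels of different genes were compared per kilobase of exon. Averaged over the 5 libraries, Nkg7 stood at 45.0 CPM per kb and Gzma at 44.4. Gzmb followed at 9.47, Prf1 at 6.62, Tbx21 at 6.44 and Ncr1 at 5.43 CPM per kb. Eomes had 2.31, Gzmk 1.75, Fasl 1.07 and Ifng 0.805 CPM per kb. Within libraries, 3 of the 9 pairs of neighbours in this order kept it in all 5. Gzma was 2.24 to 7.23 times Gzmb, Ncr1 was 1.72 to 2.89 times Eomes, and Gzmk was 1.02 to 5.23 times Fasl. The other 6 pairs changed places in at least 1 library, so their order is not resolved.

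Granule genes came first. Gzmb, which encodes granzyme B, a serine protease that triggers death in target cells, lies on chromosome 14 of GRCm38 from 56258838 to 56262260. It had 19.3, 10.3 and 18.4 CPM in the 3 tumours at 30 °C and 10.3 and 9.63 CPM in the 2 tumours at 4 °C. Both tumours at 4 °C were below all 3 at 30 °C, although 30 °C replicate 2 and 4 °C replicate 1 differed by less than their counting error (171 and 192 reads). After TMM scaling, the mean at 30 °C was 16.1 CPM with an SD of 1.975 over 3 tumours. The mean at 4 °C was 9.43 CPM with an SD of 0.143 over 2 tumours. The log2 fold change was −0.77 (standard error 0.22, 95% interval −1.29 to −0.25), with an unadjusted p of 0.0107 from the edgeR quasi-likelihood test. After Benjamini-Hochberg adjustment over all genes the edgeR adjusted p was 0.689, so the difference was not called. Gzmb was the 1 member of the 10 with an unadjusted p under 0.05, where 6.76% of all genes tested had one and 4.17% had one and were lower at 4 °C. It was also the 1 member whose groups did not overlap in CPM, where 16.4% of all genes did not and 5.41% did not and were lower at 4 °C. With TMM scaling Gzmb again stood alone among the members, and 23.3% of all genes did not overlap.

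Gzmb is also known from mast cells, so their markers are given beside it. All 8 markers of mast cells and basophils were detected in every library. Their summed level was 85.0, 23.5 and 29.6 CPM at 30 °C and 15.7 and 48.5 CPM at 4 °C, with overlap between the groups. Of the 8, 6 had a negative and 2 a positive log2 fold change. The positive ones were the mast cell proteases Mcpt4 (0.84) and Cma1 (0.13), and neither had an unadjusted p under 0.05. Mcpt8 and Prss34, proteases of basophils, were the 2 of the 8 that were lower at 4 °C without overlap in CPM. Of all genes tested, 5.41% were lower in this way. Mcpt8 had 6.46, 4.42 and 6.64 CPM at 30 °C and 1.88 and 3.52 at 4 °C. Prss34 had 12.2, 12.6 and 9.40 CPM and then 4.03 and 6.49. Their part in the value of Gzmb was not tested.

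Gzma encodes granzyme A, a tryptase-like protease of NK and T cells, on chromosome 13 from 113093825 to 113100981. Its level was 30.3, 29.3 and 76.3 CPM at 30 °C and 38.8 and 48.8 CPM at 4 °C. The tumours at 4 °C lay inside the range at 30 °C, which 30 °C replicate 3 alone extended upwards. The log2 fold change was −0.12 (standard error 0.38, 95% interval −1.03 to 0.79, edgeR adjusted p = 0.961). Prf1 encodes perforin and lies on chromosome 10 from 61297833 to 61304680. It had 8.46, 11.1 and 26.7 CPM at 30 °C and 19.9 and 19.4 CPM at 4 °C. Again 30 °C replicate 3 was the highest library, and the other tumours at 30 °C were below both at 4 °C. On the log2 scale the difference was 0.26 (standard error 0.43, 95% interval −0.78 to 1.30, edgeR adjusted p = 0.926).

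Gzmk, the gene of granzyme K, which marks some memory-like T cells, lies 70.6 kb from Gzma on chromosome 13. It was rare, with 60, 32 and 36 reads at 30 °C and 62 and 27 reads at 4 °C. These reads equal 3.43, 1.94 and 1.77 CPM and then 3.33 and 1.67 CPM. The ranges of the groups almost coincided, and the log2 fold change was −0.06 (95% interval −1.22 to 1.10). Nkg7 encodes a granule membrane protein needed for granule release. It had 45.1, 29.0 and 41.5 CPM at 30 °C and 40.1 and 49.7 CPM at 4 °C. With a ratio of 1.31 between its highest and lowest TMM-scaled library, it varied least of the 10 members, and its log2 fold change of 0.11 had the narrowest interval (−0.34 to 0.57).

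**Figure D1:**
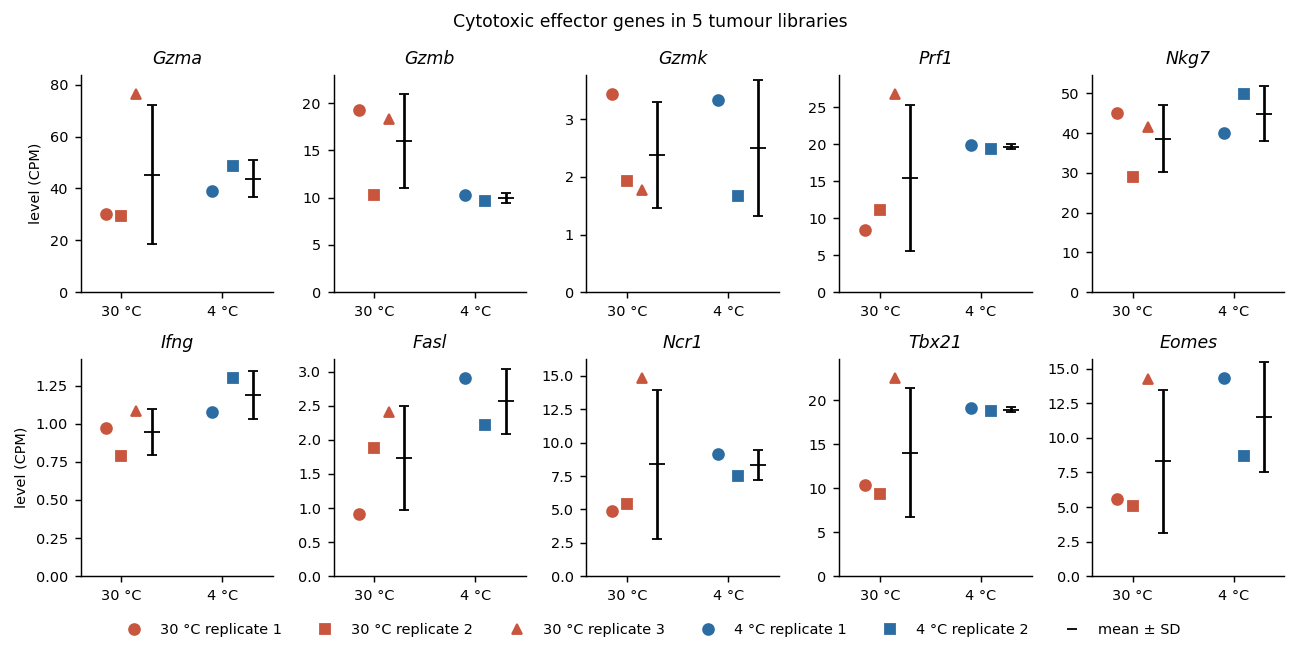
Level of each effector gene in CPM (vertical axis, starting at 0, own scale per gene) in the 3 tumours at 30 °C and the 2 at 4 °C; each symbol is 1 library and the bar gives mean ± SD. Gzmb is the gene in which both tumours at 4 °C (10.3 and 9.63 CPM) lie below all tumours at 30 °C, and 30 °C replicate 3 is far above the other tumours at 30 °C for Gzma, Prf1, Ncr1, Tbx21 and Eomes.

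Both ligand genes had few reads. Ifng encodes interferon-γ and lies on chromosome 10 from 118441046 to 118445892. It had 17, 13 and 22 reads at 30 °C and 20 and 21 at 4 °C, or 0.972, 0.786, 1.08, 1.07 and 1.30 CPM in that order. The exact Poisson 95% interval of 30 °C replicate 2 was 0.419 to 1.34 CPM and that of 4 °C replicate 2 was 0.803 to 1.98, so the libraries farthest apart still overlapped in counting error alone. These intervals cover counting error only and take reads as independent, which copies made by PCR are not. Fasl, the gene of Fas ligand on chromosome 1, had 0.915, 1.87 and 2.41 CPM at 30 °C and 2.90 and 2.22 CPM at 4 °C. For Fasl the exact Poisson 95% intervals of 30 °C replicate 1 (0.523 to 1.49 CPM) and 4 °C replicate 1 (2.18 to 3.79 CPM) did not overlap, while the ranges of the groups did. The log2 fold change was 0.20 for Ifng (95% interval −0.77 to 1.19) and 0.40 for Fasl (95% interval −0.86 to 1.67).

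Ncr1 encodes NKp46, an activating receptor largely confined to NK cells and related innate lymphocytes, on chromosome 7 from 4337724 to 4345164. Its level was 4.86, 5.44 and 14.8 CPM at 30 °C and 9.13 and 7.53 CPM at 4 °C. Here too 30 °C replicate 3 was highest and the tumours at 4 °C fell between it and the other tumours at 30 °C, with a log2 fold change of −0.09 (95% interval −1.18 to 1.01). Tbx21, the gene of T-bet on chromosome 11, had 10.4, 9.31 and 22.5 CPM at 30 °C and 19.1 and 18.8 CPM at 4 °C. Eomes, on chromosome 9, had 5.55, 5.08 and 14.3 CPM at 30 °C and 14.3 and 8.71 CPM at 4 °C. For these transcription factor genes the log2 fold changes were 0.35 (95% interval −0.44 to 1.14, edgeR adjusted p = 0.870) and 0.39 (95% interval −0.65 to 1.43, edgeR adjusted p = 0.885). In the annotation, exons of Eomes share 118 bases with Gm33460 on the opposite strand and exons of Ifng share 336 bases with Gm49751 on the same strand. The strand setting of the counting is not given in the sources used here, so reads from these overlaps cannot be assigned to one gene with certainty.

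Across the 10 members, 4 had a negative and 6 a positive log2 fold change, with a median of 0.16, beside a median of 0.01 over all genes tested. No member passed an adjusted p of 0.05, as no gene of the whole table did (0 of 16133, or 0%). Summed over the members, the level was 129, 104 and 220 CPM at 30 °C and 159 and 168 CPM at 4 °C, so that both tumours at 4 °C fell inside the range at 30 °C. The single library 30 °C replicate 3 set much of this overlap. Without it, 7 members (Gzma, Prf1, Ifng, Fasl, Ncr1, Tbx21 and Eomes) were higher at 4 °C with no overlap in CPM and Gzmb was lower. Of all genes tested, 26.6% and 7.4% did not overlap in these directions. In CPM, 30 °C replicate 2 is lowered by its acinar reads. After TMM scaling without 30 °C replicate 3, Prf1, Tbx21 and Eomes were higher without overlap, while Gzma, Ifng, Fasl and Ncr1 overlapped. The share of all genes was not counted after TMM scaling with a tumour left out, so these members have no background here. With 30 °C replicate 1 or 30 °C replicate 2 left out instead, Gzmb was the 1 member whose groups did not overlap in CPM. Lower at 4 °C without overlap were 6.9% and 17.5% of all genes. After TMM scaling, Ifng and Fasl were also higher without overlap when 30 °C replicate 2 was left out, again with no share of all genes counted. The gaps were small. For Ifng, 30 °C replicate 3 had 0.959 and 4 °C replicate 1 had 0.993 TMM-scaled CPM (22 and 20 reads). For Fasl, 30 °C replicate 3 had 2.137 and 4 °C replicate 2 had 2.154 (49 and 36 reads). In the edgeR test without 30 °C replicate 3, Tbx21 and Gzmb had an unadjusted p under 0.05 (9.36% of all genes did), and no member was called.

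**Figure D2:**
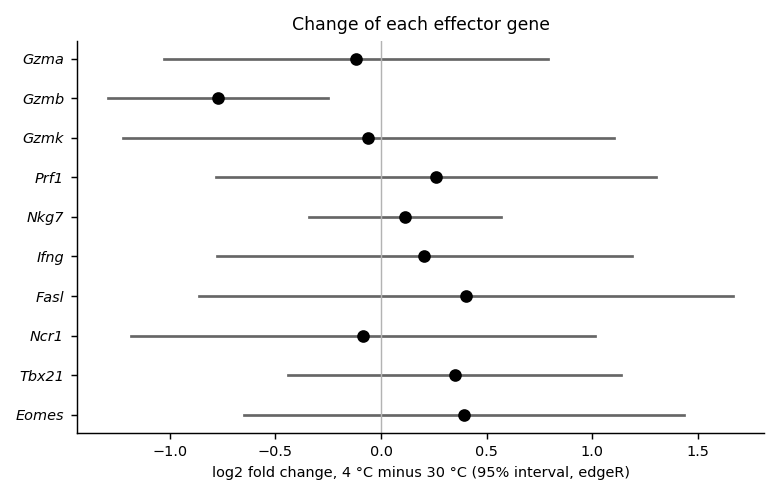
Log2 fold change of each effector gene between 4 °C and 30 °C from the edgeR fit on TMM-scaled counts (dots), with its 95% interval (lines); values right of 0 are higher at 4 °C. The interval of Gzmb (−1.29 to −0.25) lies wholly below 0 before adjustment for the number of genes, and the other 9 cross 0.

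In a bulk sample, fewer cells of a type and less RNA per cell cannot be told apart. The members were set against markers of the cells that make them. These markers are RNA of the same libraries, so the ratios do not tell them apart either. Markers of NK cells (Klrb1c, Klre1, Klri1, Klri2, Klra4, Klra8 and Klrd1) summed to 25.6, 30.7 and 80.5 CPM at 30 °C and to 59.4 and 57.9 CPM at 4 °C. They therefore followed the same order over libraries as Prf1, with 30 °C replicate 3 highest and 30 °C replicate 1 lowest. The ratio of Prf1 to this sum was 0.330, 0.361 and 0.332 at 30 °C and 0.336 and 0.335 at 4 °C. Its highest value was 1.09 times its lowest, against a median of 3.31 times over all genes tested, and 0 of the 16133 genes had a smaller spread. Next in this order were Xkrx (1.11 times) and Gdf6 (1.12 times), which are not genes of killer lymphocytes and were named after their values were seen. For Prf1 the reads ran from 148 to 543 per library, and the exact Poisson interval of 30 °C replicate 1 (7.16 to 9.94 CPM) is itself wider than this spread. These points share their libraries and their depth, and the pattern was noticed in the data. The rank holds for the sum of these 7 markers, and no other choice of NK markers was ranked. Klrd1 had a log2 fold change of 0.67, against −0.05 to 0.45 for the other markers. The small spread of Prf1 rests in part on Klrd1, because the spread is wider when Klrd1 is taken out of the sum.

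The other members differed in how closely they kept to these markers. The highest ratio over libraries was 1.45 times the lowest for Tbx21, 1.46 times for Ncr1, 1.60 times for Eomes, 1.81 times for Gzma, 2.04 times for Fasl and 2.82 times for Ifng, all below the median of all genes. It was 3.42 times for Nkg7, 4.54 times for Gzmb and 6.08 times for Gzmk, all above that median. For Ncr1 the ratio to NK markers was 0.190, 0.178 and 0.184 at 30 °C and 0.154 and 0.130 at 4 °C, lower at 4 °C without overlap. Gzma stood at 1.18, 0.955 and 0.948 at 30 °C and at 0.654 and 0.842 at 4 °C, also without overlap. The ratios of Gzmb were 0.754, 0.337 and 0.228 at 30 °C and 0.174 and 0.166 at 4 °C, again without overlap. Thus 3 members were lower relative to NK markers without overlap and 0 were higher, where 6.2% and 1.15% of all genes tested were (7.36% in either direction). For Gzma this rests on the marker Klrd1. With Klrd1 taken out of the sum, the groups of Gzma overlap, while those of Ncr1 and Gzmb still do not. The shares of all genes were counted with the full sum only. Relative to Prf1, Gzmb stood at 2.28, 0.934 and 0.687 at 30 °C and at 0.518 and 0.497 at 4 °C, with 30 °C replicate 1 far above the other libraries. Groups of 7.66% of all genes did not overlap when divided by Prf1.

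Markers of T cells stood higher in the cold. The 8 T cell genes summed to 273, 221 and 471 CPM at 30 °C and to 608 and 586 CPM at 4 °C, and 6 of the 8 had an edgeR unadjusted p under 0.05 in this direction, where 2.58% of all genes did. None was called after adjustment. Markers of other cells differed as well. The 7 erythroblast markers summed to 15540 to 30780 CPM at 30 °C and to 35620 and 41970 CPM at 4 °C. Of these 7, 3 were higher and 1 lower without overlap in CPM, where 11% and 5.41% of all genes were. The 3 higher ones, Hbb-bs, Hbb-bt and Hba-a1, overlapped after TMM scaling. All 6 B cell markers had a positive log2 fold change (median 0.71), and their sum was 1147 to 3068 CPM at 30 °C and 2826 and 3335 CPM at 4 °C. All 3 splenic mesenchyme genes were higher at 4 °C without overlap in CPM (median 0.75), where 11% of all genes tested were. All 8 neutrophil markers had a negative log2 fold change (median −1.36), and their sum was 2492 to 10540 CPM at 30 °C and 2006 and 3133 CPM at 4 °C. Their part in the values of the T cell markers and of the members was not tested. Cd8a, the gene of the CD8 alpha chain, had 37.5, 30.4 and 71.2 CPM at 30 °C and 73.1 and 76.5 CPM at 4 °C. The summed members came to 0.474, 0.471 and 0.466 of the T cell marker sum at 30 °C and to 0.261 and 0.286 of it at 4 °C. Of the members, 6 of 10 were lower relative to T cell markers without overlap. The same held for 64.1% of all genes tested, so this count is near the background and is not a result about the members. No member was higher without overlap, as 0.329% of all genes were, and 64.4% did not overlap in either direction. Relative to T and NK markers summed together, 4 members were lower without overlap and 0 higher, where 58.9% and 0.415% of all genes were (59.3% in either direction). Relative to Cd3d, Cd3e and Cd3g, genes of the T cell receptor complex, 6 members were lower without overlap and 0 higher. Of all genes, 76.5% and 0.198% were (76.7% in either direction).

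**Figure D3:**
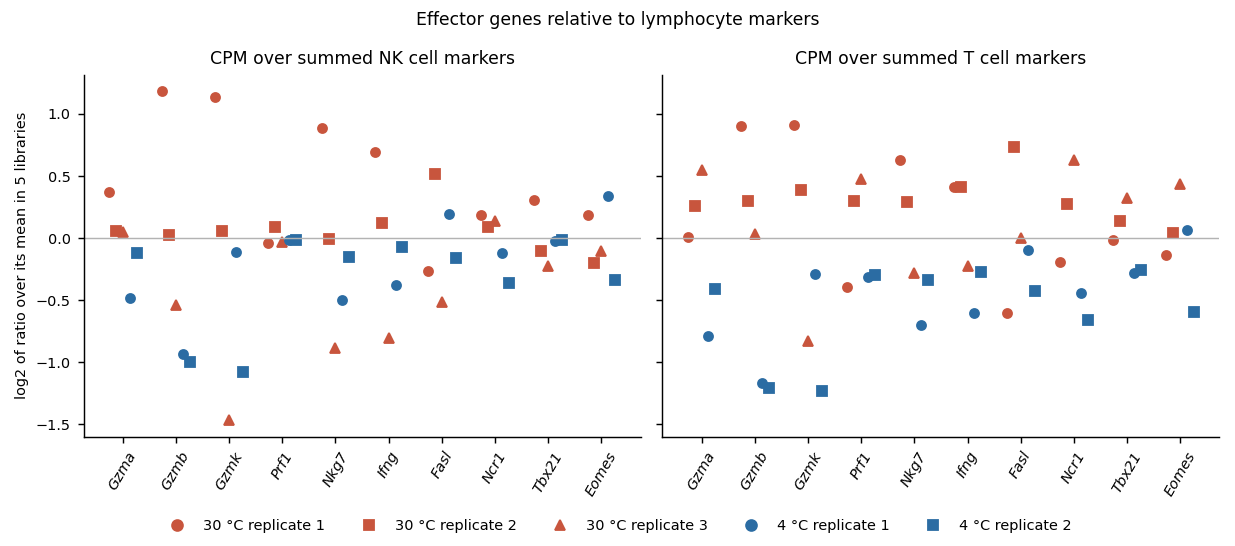
Ratio of each effector gene to the summed CPM of 7 NK cell markers (left) and of 8 T cell markers (right), as the log2 of the ratio over its mean in the 5 libraries; each symbol is 1 library. Relative to NK markers the 5 libraries nearly coincide for Prf1 (0.330 to 0.361), and relative to T cell markers the tumours at 4 °C (blue) tend to lie low, as 64.1% of all genes do without overlap.

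The stretches upstream of 4 of these genes are shown, picked after their values were seen. Their ratios to NK markers differed in spread, from 1.09 times for Prf1 over 1.46 times for Ncr1 and 1.81 times for Gzma to 4.54 times for Gzmb. A link between the stretches and this spread was not tested. Each is the 250 bases before the RefSeq start on GRCm38.p6, written 5′ to 3′ on the strand of the gene. Capitals mark matches on either strand to 3 motifs that do not overlap here: GGTGTGA for T-box factors, TGTGGTT for RUNX factors and TGAGTCA for AP-1.
Gzmb, chr14:56262335-56262584, minus strand: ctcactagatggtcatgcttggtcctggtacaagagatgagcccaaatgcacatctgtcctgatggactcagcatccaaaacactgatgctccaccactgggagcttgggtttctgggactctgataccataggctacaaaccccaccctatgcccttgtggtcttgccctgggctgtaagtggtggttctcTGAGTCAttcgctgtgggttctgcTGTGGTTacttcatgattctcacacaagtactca
Prf1, chr10:61297586-61297835, plus strand: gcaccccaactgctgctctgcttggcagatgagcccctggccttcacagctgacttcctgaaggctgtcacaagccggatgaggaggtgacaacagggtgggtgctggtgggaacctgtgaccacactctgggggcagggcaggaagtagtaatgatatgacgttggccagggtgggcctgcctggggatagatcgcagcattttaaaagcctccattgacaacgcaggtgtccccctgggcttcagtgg
Gzma, chr13:113100982-113101231, minus strand: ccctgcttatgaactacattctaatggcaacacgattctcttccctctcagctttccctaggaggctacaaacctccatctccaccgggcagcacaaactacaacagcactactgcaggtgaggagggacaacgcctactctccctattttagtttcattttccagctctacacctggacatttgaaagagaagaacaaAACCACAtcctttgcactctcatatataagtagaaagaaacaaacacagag
Ncr1, chr7:4337474-4337723, plus strand: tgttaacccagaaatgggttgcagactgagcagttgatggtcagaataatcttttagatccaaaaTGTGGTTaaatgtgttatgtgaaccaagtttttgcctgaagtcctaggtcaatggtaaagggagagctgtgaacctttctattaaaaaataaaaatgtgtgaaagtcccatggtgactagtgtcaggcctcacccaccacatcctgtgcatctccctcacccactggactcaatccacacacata
Gzmb held the AP-1 letters 58 bases and the RUNX letters 34 bases before the start. RUNX letters also stood upstream of Gzma, as their complement AACCACA, and of Ncr1, and Prf1 had none of the 3 motifs in this window. Of the 10 members, 3 held the RUNX letters, 2 (Gzmk and Nkg7) the T-box letters and 1 the AP-1 letters. Over all 32851 windows of this length, 4.40% held the RUNX, 3.33% the T-box and 4.46% the AP-1 letters. A match is a run of letters and not a measured site. RefSeq starts differ from the gene coordinates used elsewhere for some members. By those coordinates, the Nkg7 match and the whole Gzmk window lie inside the gene. The RefSeq start of Gzmb lies upstream of its end on chromosome 14 given above.

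Other genes of the pathway were read from 7 lists written by hand. Of 73 listed genes, 72 were in the table under their symbol, 65 were tested, and 0 were called. At an unadjusted p under 0.05 from edgeR, 6 were higher and 2 lower at 4 °C, where 2.58% and 4.17% of all genes were. Without overlap in CPM, 10 were higher and 2 lower, where 11% and 5.41% of all genes were. The median log2 fold change over the 65 was 0.16, the same as that of the members when rounded.

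Among other granzymes, Gzmm, which codes for the granzyme M of NK cells, had 1.20, 0.968 and 2.56 CPM at 30 °C and 3.01 and 2.96 CPM at 4 °C. The groups did not overlap, with a log2 fold change of 0.84 (edgeR adjusted p = 0.776). Gzmd, Gzme, Gzmf, Gzmg and Gzmn, which form a cluster with Gzmb on chromosome 14, had 0 reads in every library. A count of 0 allows up to 0.148 to 0.185 CPM in these libraries. Gzmc, 24.2 kb from Gzmb, had 0 to 6 reads per library and was not tested. The genes of this cluster are alike in sequence, and the treatment of reads that match several of them is not given in the sources used here. Rab27a, a GTPase that docks granules at the membrane, had 67.7, 45.4 and 45.5 CPM at 30 °C and 43.4 and 32.8 at 4 °C, a log2 fold change of −0.61 (edgeR adjusted p = 0.743). In the list of 17 granule and exocytosis genes, 10 were tested, of which 6 were lower and 4 higher, and none had an unadjusted p under 0.05.

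Fas, the receptor of Fas ligand, had 16.4, 9.07 and 12.0 CPM at 30 °C and 17.0 and 22.9 CPM at 4 °C. Both tumours at 4 °C were above all at 30 °C, with a log2 fold change of 0.57 (edgeR adjusted p = 0.755).

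Both chemokines named from the interferon-γ list were higher at 4 °C without overlap, as 11% of all genes were, and neither was called. They stood beside a log2 fold change of 0.20 for Ifng. Cxcl9 had 43.1, 23.2 and 44.0 CPM under warm housing and 47.9 and 85.4 CPM under cold housing. The log2 difference was 0.79 (standard error 0.29, edgeR adjusted p = 0.709). Cxcl10 had 29.7, 12.2 and 28.9 CPM at 30 °C and then 39.0 and 46.2 CPM, which gave 0.79 on the log2 scale (standard error 0.26, edgeR adjusted p = 0.694). They were the 2 of 10 tested genes of the interferon-γ list with an unadjusted p under 0.05. Of the 10, 9 had a positive log2 fold change, and the median was 0.27.

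Cytokine receptors of killer cells split in direction. Il18rap, a subunit of the interleukin-18 receptor, had 28.2, 21.2 and 36.1 CPM at 30 °C and 20.3 and 15.4 CPM at 4 °C. Its log2 fold change of −0.78 (standard error 0.21, edgeR unadjusted p = 0.00789, adjusted p = 0.689) made it the listed pathway gene with the smallest p. Il2rg, the common gamma chain of several interleukin receptors, had 116, 69.1 and 158 CPM at 30 °C and 185 and 188 CPM at 4 °C, a log2 fold change of 0.63 (edgeR adjusted p = 0.702). Il2 had at most 2 reads in a library and was not tested. Of the 12 tested genes of this list, 1 was higher and 1 lower at an unadjusted p under 0.05.

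Among transcription factors, Tcf7, which codes for TCF-1 of naive and memory T cells, had 83.4, 63.1 and 131 CPM at 30 °C and 183 and 152 CPM at 4 °C. On the log2 scale the difference was 0.77 (standard error 0.22, edgeR unadjusted p = 0.0116, adjusted p = 0.689), and it was the 1 of 10 with an unadjusted p under 0.05. Nfil3, a factor needed for NK cell development, had 23.8 CPM in 30 °C replicate 1 but no more than 9.45 CPM in any of the others. Of the activating receptors and adaptors, Hcst, the DAP10 adaptor of the receptor NKG2D, and Cd160 were higher at 4 °C without overlap in CPM. Of all genes tested, 11% were higher in this way. Hcst had a log2 fold change of 0.75 (edgeR adjusted p = 0.692) and Cd160 of 0.78 (edgeR adjusted p = 0.727). Among the 4 effector chemokines, which T and NK cells secrete, all had positive log2 fold changes, from 0.32 for Ccl5 to 0.77 for Xcl1, and none had an unadjusted p under 0.05.

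**Figure D4:**
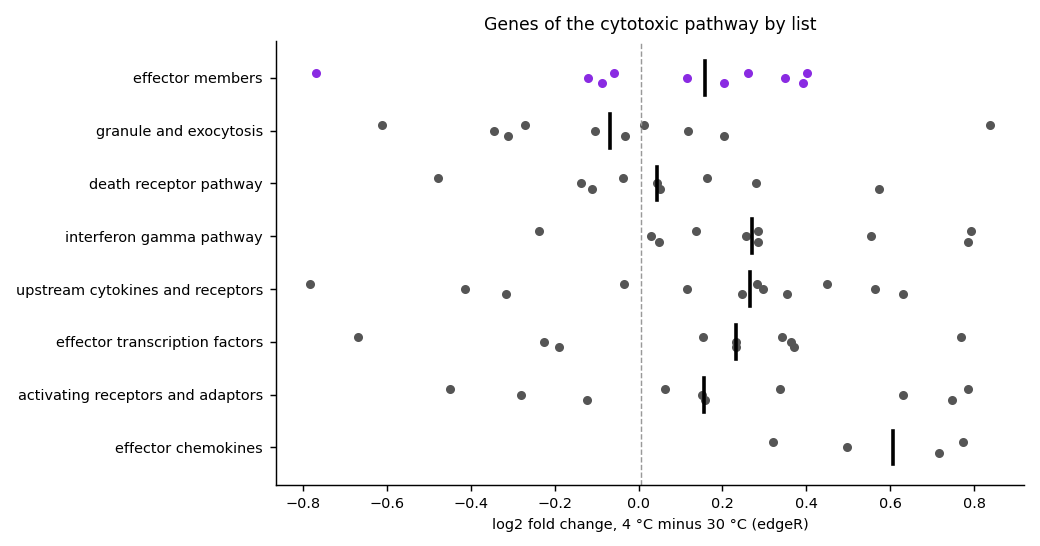
Log2 fold change between 4 °C and 30 °C (horizontal axis, edgeR) of the 10 effector genes and of the 65 tested genes of 7 pathway lists; each dot is 1 gene, bars are list medians and the dashed line is the median of all genes tested (0.01). List medians lie between −0.07 for granule and exocytosis genes and 0.61 for effector chemokines, and no gene was called.

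The members did not share one profile over the 5 libraries. On the log2 scale and centred on each gene's own mean, their average ran from −0.40 in 30 °C replicate 1 to 0.27 in 30 °C replicate 3. Gzmb and Gzmk lay farthest from this average, with root mean square differences of 0.52 and 0.59, and Tbx21 nearest, at 0.20. The non-member genes nearest to the average were Phf7, Gdpgp1, Gm4956, Slc37a1 and Zfp429, at 0.03 to 0.05 over 5 libraries. Since 22.5% of all other genes tested lay within 0.25 of it, as did 2 of the 10 members, nearness on this measure is common.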

How the data were processed

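The deposited table holds counts of aligned reads per gene symbol for 5 tumours, made by the authors with featureCounts 2.0.0 on the Gencode vM19 annotation (GRCm38). The submitters' processing notes also name fastp, HISAT and RSEM. Aligner settings, strand and multi-mapped reads are not given in the sources used here, and 200 ng RNA per group is stated for the libraries.

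Unnamed entries (333 of 54446, 0.0101% to 0.0170% of the counts of a library) were left out. For 97 repeated symbols, the most abundant entry kept the name. Low genes were removed by the filterByExpr function (edgeR 4.0.16 under R 4.3.3). Counts were scaled by TMM and compared with a robust quasi-likelihood F-test without covariates, with Benjamini-Hochberg adjustment over 16133 genes at a threshold of 0.05. DESeq2 1.42.0, other scalings and filters, the replicate number as a block and each tumour left out in turn were alternatives. A count of 3 was the floor. Exon lengths and coordinates come from GENCODE M21 on GRCm38, and upstream sequences of all 10 members from RefSeq on GRCm38.p6.

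Members and lists were chosen with earlier results of these data known. Named are all members, the 2 genes of each pathway list with the smallest p, markers where a result turns on them and the 5 genes with the most similar profile (prior count 2). One gene that this rule names is not reported here. Ratios to NK markers, to T cell markers and to Prf1 and the upstream motifs were chosen after the values were seen. Replicates are separate tumours in the labels, and whether each came from its own mouse is not stated. For pairs within a group, chi-square per degree of freedom was at least 57.0. This is a ratio of variance to sampling variance, on which abundant genes weigh most.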

Additional observations from a re-analysis of the deposited data

How the results depend on the processing

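Gzmb kept its direction under all 13 alternatives (log2 fold change −0.87 to −0.68) and an unadjusted p under 0.05 under 12 of them, with adjusted p between 0.117 and 1.00. Ifng, Fasl, Tbx21 and Eomes also kept their direction under all 13. No member was called under any alternative. Upper-quartile scaling split the genes with an unadjusted p under 0.05 into 570 lower and 558 higher, against 673 and 417 with TMM. Called genes numbered 0 with edgeR, 118 with the DESeq2 Wald test and 44 with the replicate block. The block also left 0 members with an unadjusted p under 0.05 and turned the log2 fold changes of Gzma (0.30) and Ncr1 (0.44). Equal numbers are no stated pairing. Deviations from the group mean of same-numbered tumours correlated at −0.255 and 0.259. Those of 30 °C replicate 3 correlated at 0.616 with 4 °C replicate 1 and at −0.616 with 4 °C replicate 2. With 2 tumours at 4 °C these deviations mirror each other, so the correlations cannot decide on a pairing. Why these values moved was not tested.

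With each tumour left out in turn, 520 to 1477 genes had an unadjusted p under 0.05 (1090 with all tumours, 520 without 30 °C replicate 2 and 540 without 4 °C replicate 2), as did 1 to 2 members (2 without 30 °C replicate 3). Members whose groups did not overlap in CPM numbered 1 to 8 with each 30 °C tumour left out (8 without 30 °C replicate 3). This count was not run without a tumour at 4 °C. Log2 fold changes ran from −0.37 to 0.29 for Gzma, −0.60 to 0.31 for Gzmk, −0.060 to 0.71 for Prf1, −0.10 to 0.29 for Nkg7 and −0.39 to 0.41 for Ncr1, so the sign of these 5 rests on single tumours. Fits without a tumour at 4 °C take the remaining one to vary like the other group. With 3 tumours against 2, an exact two-sided permutation test cannot go below 0.2.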
